A study of Homo sapiens with 24 samples.

Results

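The nuclear genes for respiratory complexes II, III and IV, for cytochrome c and for ATP synthase (complex V) were followed in 4 human cancer cell lines treated with Ocoxin. Protein-coding genes were taken by symbol: SDHA to SDHD, CYC1, CYCS, and the symbols that begin with UQCR, with COX and a subunit number from 4 to 8 followed by A, B or C, or with ATP5. The rule found 50 of the 58051 genes in the count tables, namely 4 of complex II, 10 of complex III, 1 for cytochrome c, 15 of complex IV and 20 of ATP synthase. It leaves out COX4I1, COX4I2 and NDUFA4, which also belong to complex IV and are given apart.

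The 24 RNA libraries came from 4 lines, each with 3 libraries of control and 3 of Ocoxin-treated cells: SW620 (colon, COAD), BxPC-3 (pancreas, PAAD), LNCaP (prostate, PRAD) and HCC-70 (triple negative breast, TNBC). Ocoxin is a supplement of plant extracts such as green tea, licorice and cinnamon with amino acids, vitamins and minerals. Cells were kept for 48 h in medium with little serum, with Ocoxin at about its IC50 for each line, a dilution of 50-fold in PRAD, 500-fold in PAAD and 700-fold in both COAD and TNBC, and controls had no Ocoxin. The RNA came from the cells that were still attached, each cancer type is represented by 1 line, and nothing says that the replicates were separate cultures, so the p-values measure the spread between these libraries only.

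Complex II (succinate dehydrogenase) links the citric acid cycle to the respiratory chain by passing electrons from succinate to ubiquinone. Complex III passes them on to cytochrome c, complex IV reduces oxygen, and complexes III and IV pump protons whose return through ATP synthase drives ATP synthesis. All subunits of complex II are encoded in the nucleus, whereas complexes III, IV and V also need subunits from mitochondrial DNA, whose genes hold 0 counts in every library of these tables and were not measured.

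The libraries held 25160757 to 39009959 counts in COAD, PAAD and TNBC and 9063968 to 9520969 in PRAD, whose table was counted with another setting, so levels were compared only within a line. Most defining markers were present, with a control mean of 403 CPM (counts scaled to library size) for KLK3 in PRAD, 526 for VIL1 in COAD, 1051 for KRT7 in PAAD and 1600 for KRT5 in TNBC, while LGALS4 was at 0.673 in COAD, where CDX1 did not pass the filter, and ERBB2 at 248 in TNBC. Of 8 markers of immune, endothelial and stromal cells, PTPRC, CD68, COL1A2 and DCN were at 0 to 16 counts in every library, and VWF differed between groups in PAAD (3.89 and 7.22 CPM in control and Ocoxin) and PRAD (78.2 and 47.1), whose part in the results was not tested. Of the 50 genes, 43 had enough counts to be tested in all 4 lines. The tissue-restricted forms COX6A2, COX7A1 and COX8C and the readthrough gene ATP5MF-PTCD1 were tested in no line, COX6B2 only in PAAD and TNBC, and COX7B2 and ATP5MGL only in PRAD.

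Most of these genes were lower with Ocoxin in TNBC. Of the 44 tested, 30 were downregulated and 0 upregulated (edgeR, adjusted p under 0.05, with 0 also by DESeq2 and 0 upregulated at an unadjusted p under 0.05), where 11.3% of the 17352 genes tested in TNBC were called lower and 9.65% higher. All 44 log2 fold changes were below 0, with a median of -0.20 against 0.0056 for all genes tested. In 37 of the 44, the 3 Ocoxin libraries lay below the 3 control libraries, which 19.8% of all genes tested did. In bulk RNA, fewer cells that express a gene and less RNA per cell cannot be told apart.

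Within complex II, both the catalytic flavoprotein SDHA and the membrane anchor SDHC were downregulated in TNBC. SDHA was at 460, 479 and 454 CPM in the control libraries and at 419, 418 and 376 in the Ocoxin libraries. The groups did not overlap, and the third Ocoxin library was the lowest. Its log2 fold change was -0.20 ± 0.044 (SE, n = 3 per group, adjusted p = 0.00714), and that of SDHC was -0.20 ± 0.040 (adjusted p = 0.00399). The iron-sulfur subunit SDHB and the other anchor, SDHD, were not called, with log2 fold changes of -0.05 ± 0.039 and -0.06 ± 0.043.

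Complex III had 8 of 10 members downregulated in TNBC. UQCRH, the hinge protein at cytochrome c1, was at 146.3, 145.8 and 146.3 CPM in the controls and at 126.4, 126.2 and 122.9 with Ocoxin, a log2 fold change of -0.22 ± 0.037 (adjusted p = 0.00122). The libraries of each group were close together for this gene and the groups were far apart. UQCRFS1, the Rieske iron-sulfur protein, fell from 115 ± 0.870 to 98.5 ± 1.34 CPM (SD, n = 3) with a log2 fold change of -0.23 (adjusted p = 0.00152). The small subunit UQCRQ fell by 0.25 on the log2 scale and UQCR11, the lowest of the 10 in expression at 11.2 CPM, fell by 0.36 ± 0.11, the largest change in this complex. UQCR10, UQCRB and the core protein UQCRC2 were called with log2 fold changes of -0.17, -0.17 and -0.11. UQCRHL, at -0.26, is a near-identical copy of UQCRH, and reads of the pair cannot be assigned with certainty. CYC1, which carries the haem of cytochrome c1, and the core protein UQCRC1 were not called (adjusted p = 0.0846 and 0.0628). With the replicate number as a block both were called (edgeR, adjusted p = 0.0127 and 0.000968). UQCRC1 was also called without the filter on low counts and without the third TNBC control.

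Cytochrome c itself (CYCS), the carrier between complexes III and IV, was at 189 ± 4.48 CPM in the TNBC controls and 177 ± 3.43 with Ocoxin. The groups did not overlap, and the log2 fold change of -0.09 ± 0.037 did not pass the threshold (adjusted p = 0.0921), but passed with the replicate number as a block (edgeR, adjusted p = 0.0192).

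Complex IV had 7 of 11 tested members downregulated in TNBC, among them COX7A2, the called gene with the largest change. COX7A2, the form of subunit VIIa found in most tissues (chr6:75237675-75250323, hg38, minus strand), was at 70.7, 76.5 and 68.6 CPM in the controls and at 48.5, 51.0 and 48.0 with Ocoxin. All Ocoxin libraries lay far below all controls, and the log2 fold change of -0.55 ± 0.053 (adjusted p = 3.12e-05) amounts to 31.7% less. COX6B1, which faces the intermembrane space (chr19:35648223-35658861, plus strand), was at 117, 132 and 125 CPM in the controls and at 98.8, 99.8 and 98.8 with Ocoxin. The controls spread more than the Ocoxin libraries and did not overlap them (log2 fold change -0.33 ± 0.047, adjusted p = 0.000446). COX7C, a small subunit in the inner membrane (chr5:86617904-86620962, plus strand), was at 87.7, 89.998 and 89.8 CPM in the controls and at 72.9, 71.3 and 73.9 with Ocoxin, again without overlap (log2 fold change -0.29 ± 0.042, adjusted p = 0.000454).

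COX8A fell by 0.25, COX5B by 0.22, COX6A1 by 0.20 and COX7B by 0.17 on the log2 scale in TNBC. COX6A1 is uncertain, since pseudogenes named after it took 55.3% of the reads on it and them together in the TNBC controls. COX5A, COX6C and COX7A2L, a supercomplex factor related in sequence to COX7A2, were not called, with log2 fold changes of -0.05 ± 0.051, -0.09 ± 0.042 and -0.03 ± 0.048. COX6B2, a testis form, had under 1 CPM. The subunits outside the symbol rule, COX4I1 and NDUFA4, were both downregulated with a log2 fold change of -0.19 (adjusted p = 0.0113 and 0.00455), and COX4I2 was not tested.

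In ATP synthase, 13 of 18 tested members were downregulated in TNBC. ATP5MG, subunit g of the membrane part, was at 70.9, 72.4 and 73.6 CPM in the controls and at 57.3, 62.1 and 56.0 with Ocoxin, a log2 fold change of -0.31 ± 0.051 (adjusted p = 0.00122). The groups did not overlap, and the second Ocoxin library was the nearest to the controls. The catalytic subunits moved less, with -0.15 ± 0.033 for beta (ATP5F1B, adjusted p = 0.00619) and -0.10 ± 0.033 for alpha (ATP5F1A, adjusted p = 0.0421). Among the stalk subunits, ATP5F1C (gamma) had -0.22, ATP5F1E (epsilon) -0.23, ATP5PB (b) -0.18, ATP5PD (d) -0.15 and ATP5PF (F6) -0.26, all called, while ATP5F1D (delta) at -0.20 ± 0.088 and ATP5PO (OSCP) at -0.13 ± 0.074 were not. With the replicate number as a block ATP5F1D was called (adjusted p = 0.0238).

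The same mature c subunit of the rotor ring is encoded by ATP5MC1, ATP5MC2 and ATP5MC3. Of these, ATP5MC3 fell from 87.0 ± 1.95 to 74.1 ± 2.37 CPM in TNBC (log2 fold change -0.23 ± 0.044, adjusted p = 0.00304). ATP5MC1 and ATP5MC2 had -0.10 ± 0.067 and -0.07 ± 0.039 and were not called, and the difference between the 3 genes was not tested. The small membrane subunits ATP5MF, ATP5MJ and ATP5MK were called at -0.20, -0.19 and -0.20, as was ATP5IF1, an inhibitor of the enzyme's reverse reaction, at -0.12, and ATP5ME was not called at -0.26 ± 0.094 except with the block (adjusted p = 0.0209). Between genes within the TNBC controls, ATP5F1B had the highest level per exonic length (190 CPM per kb), ahead of COX8A (139), COX6B1 (133) and ATP5F1C (124).

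Of the 30 calls in TNBC, 19 held in every alternative analysis and with each library left out, and these were SDHA, SDHC, UQCRFS1, UQCRH, UQCRHL, UQCRQ, COX5B, COX6B1, COX7A2, COX7C, COX8A, ATP5F1B, ATP5F1C, ATP5F1E, ATP5MC3, ATP5MG, ATP5MJ, ATP5PB and ATP5PF. Leaving out the first Ocoxin library gave 19 calls in place of 30, and the other libraries 21 to 25. Without the first Ocoxin library the share of all genes tested that was called also fell, from 21% to 12.9%. It was 12.9% to 16.6% without a control or the second Ocoxin library, and 21.8% without the third. The median log2 fold change of the members stayed between -0.20 and -0.18 in these fits. The 44 genes have a median exonic length of 2485.5 bases, against 4087.5 for all genes tested.

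**Figure D1:**
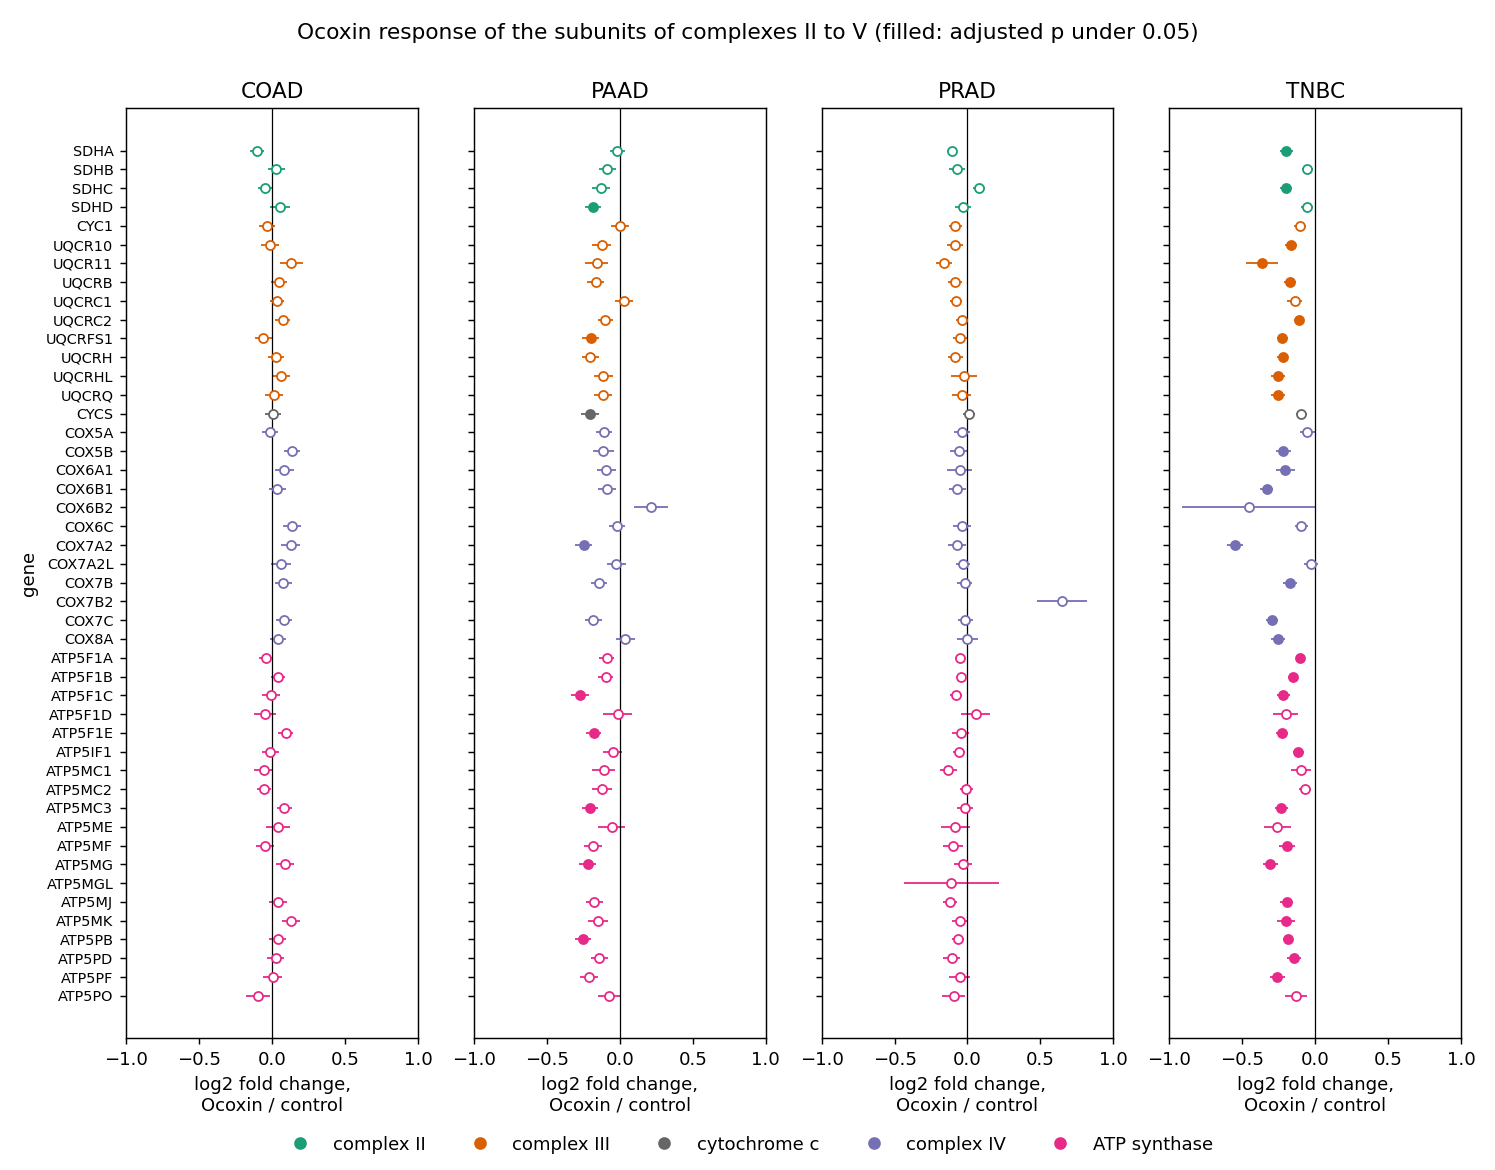
Log2 fold change (Ocoxin against control, x axis) of each tested gene (y axis) in the 4 lines, coloured by complex, with bars of 1 SE from 3 libraries per group and filled points for an adjusted p under 0.05. All 44 points of TNBC lie below 0 and 30 are filled, PAAD has 9 filled points below 0, and COAD and PRAD have none.

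Since many of these genes moved together in TNBC, their promoters were read for the sites of factors known to act on respiratory genes. Of the 50 genes, 38 matched a RefSeq promoter (GRCh38.p14), and the 250 bases before the start were searched on both strands for CCGGAAG (the core bound by ETS factors such as GABPA), GCGCA followed by any base and GCGC (NRF1) and AAGATGGC (YY1). The ETS letters occurred in 31.6% of the 38, against 8.82% of 27305 promoters, the NRF1 letters in 26.3% against 5.53%, and the YY1 letters in 2.63% against 1.37%, and 3 of the 38 held more than 1 of the motifs. Of the 24 matched genes called in TNBC, 10 held the ETS letters and 5 the NRF1 letters, and of the 11 tested and not called, 2 and 4 did. These counts describe letters and not binding.

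The 120 bases before the RefSeq start follow for COX7A2, which changed most, and for 4 other genes that were downregulated in TNBC and hold a match, with the matched letters in capitals. COX7A2 (chr6:75250299-75250418, minus strand) holds none of the motifs in this window. COX6B1 (chr19:35648203-35648322, plus strand) has its ETS match 12 bases before the start and UQCRH (chr1:46303578-46303697, plus strand) 46 bases before it. ATP5F1C (chr10:7788057-7788176, plus strand) and UQCRFS1 (chr19:29213152-29213271, minus strand) have an NRF1 match 22 and 31 bases before the start. For the 4 genes with a match, the gene model of the count tables begins further upstream than the RefSeq start.
COX7A2: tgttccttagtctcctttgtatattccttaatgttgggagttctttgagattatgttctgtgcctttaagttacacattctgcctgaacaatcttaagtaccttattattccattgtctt
COX6B1: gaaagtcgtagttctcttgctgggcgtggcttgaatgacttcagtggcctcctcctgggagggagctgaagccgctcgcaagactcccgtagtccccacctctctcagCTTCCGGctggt
UQCRH: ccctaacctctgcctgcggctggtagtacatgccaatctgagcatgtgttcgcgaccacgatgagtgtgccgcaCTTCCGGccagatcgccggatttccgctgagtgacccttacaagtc
ATP5F1C: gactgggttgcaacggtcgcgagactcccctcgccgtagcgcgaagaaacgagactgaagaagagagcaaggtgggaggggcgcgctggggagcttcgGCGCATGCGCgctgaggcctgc
UQCRFS1: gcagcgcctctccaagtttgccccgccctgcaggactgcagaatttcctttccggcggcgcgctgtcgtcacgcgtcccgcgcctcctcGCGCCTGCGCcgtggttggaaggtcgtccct

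In PAAD, 9 of 44 tested genes were downregulated and 0 upregulated (0 also by DESeq2 and 0 at an unadjusted p under 0.05), where 3.62% of the 17280 genes tested were called lower, 4.72% higher and 8.33% in either direction. The median log2 fold change was -0.12 against 0.0027 for all genes tested, 40 of the 44 were below 0, and in 24 the Ocoxin libraries lay below all controls, as 13.9% of all genes tested did. The calls were spread over the chain, with SDHD in complex II, UQCRFS1 in complex III, CYCS, COX7A2 in complex IV, and ATP5F1C, ATP5F1E, ATP5MC3, ATP5MG and ATP5PB in ATP synthase.

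ATP5PB, subunit b of the peripheral stalk (chr1:111448864-111462773, hg38, plus strand), was at 266.8, 250.8 and 246.5 CPM in the PAAD controls and at 209.8, 210.5 and 222.3 with Ocoxin, a log2 fold change of -0.25 ± 0.055 (adjusted p = 0.0101). ATP5F1C, the gamma subunit of the central stalk (chr10:7788129-7807815, plus strand), was at 191.2, 174.3 and 174.6 CPM in the controls and at 141.9, 146.5 and 158.4 with Ocoxin (-0.27 ± 0.061, adjusted p = 0.0111). Neither gene's groups overlapped, and both had their highest Ocoxin value in the third library. COX7A2 was at 97.98, 96.27 and 89.88 CPM in the controls and at 79.7, 78.9 and 80.6 with Ocoxin (-0.25 ± 0.058, adjusted p = 0.0153). ATP5MG was at 115, 108 and 108 CPM in the controls and at 93.0, 92.5 and 98.9 with Ocoxin (-0.22 ± 0.058, adjusted p = 0.0288).

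Cytochrome c was downregulated in PAAD. CYCS was at 280.8, 280.5 and 300.2 CPM in the controls and at 233.7, 244.0 and 269.1 with Ocoxin, and its log2 fold change was -0.21 ± 0.060 (adjusted p = 0.0468). SDHD was called at the edge of the threshold (-0.18 ± 0.055, adjusted p = 0.0499), and SDHA, SDHB and SDHC were not called at -0.02, -0.08 and -0.13, of which SDHC was called with the block (adjusted p = 0.037). CYC1 differed by less than the spread between replicates, with 183 ± 13.3 CPM in the controls and 183 ± 7.88 with Ocoxin. UQCRH had the largest change of complex III and missed the threshold (-0.20 ± 0.061, adjusted p = 0.0541), and was called with the block (adjusted p = 0.00114). The highest value belonged to COX6B2 at 0.21 ± 0.11, which was not called (10.5 ± 0.776 and 12.2 ± 1.72 CPM).

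The calls in PAAD depended on single libraries, and so did the share of all genes tested that was called. This share was 8.33% with all libraries and 3.87% and 3.64% without the first and the second Ocoxin library. It was 5.43% and 4.52% without the first and the second control, and 9.77% without the third control. The counts below moved with this share, so they cannot show a dependence particular to these genes. Without the first or the second Ocoxin library 0 genes were called (14 and 15 lower at an unadjusted p under 0.05), without the first or the second control 2 (ATP5F1C and ATP5PB), without the third control 13 and without the third Ocoxin library 8, whereas the median stayed between -0.15 and -0.08. With the replicate number as a block, 23 genes were called lower and 0 higher, while the share of all genes called in either direction rose from 8.33% to 23.1%. The numbers paired the PAAD libraries only weakly. The second Ocoxin library correlated with the second control at 0.107 and with the first at 0.090.

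Of the 9 genes called in PAAD, 7 were also called in TNBC, all lower, which is 77.8% of the PAAD calls and 23.3% of the TNBC calls: UQCRFS1, COX7A2, ATP5F1C, ATP5F1E, ATP5MC3, ATP5MG and ATP5PB. SDHD and CYCS were called in PAAD and not in TNBC, where CYCS was called with the block, and the TNBC to PAAD difference was not tested. Without the block or the removal of a trend with length and GC content, no gene was called in 3 lines or in opposite directions in 2 lines. With the block, COX7A2 was called higher in COAD and lower in PAAD and TNBC, and COX5B higher in COAD and lower in TNBC. The replicate numbers did not pair the COAD libraries. With the trend removed, UQCRB was called lower in PAAD, PRAD and TNBC.

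**Figure D2:**
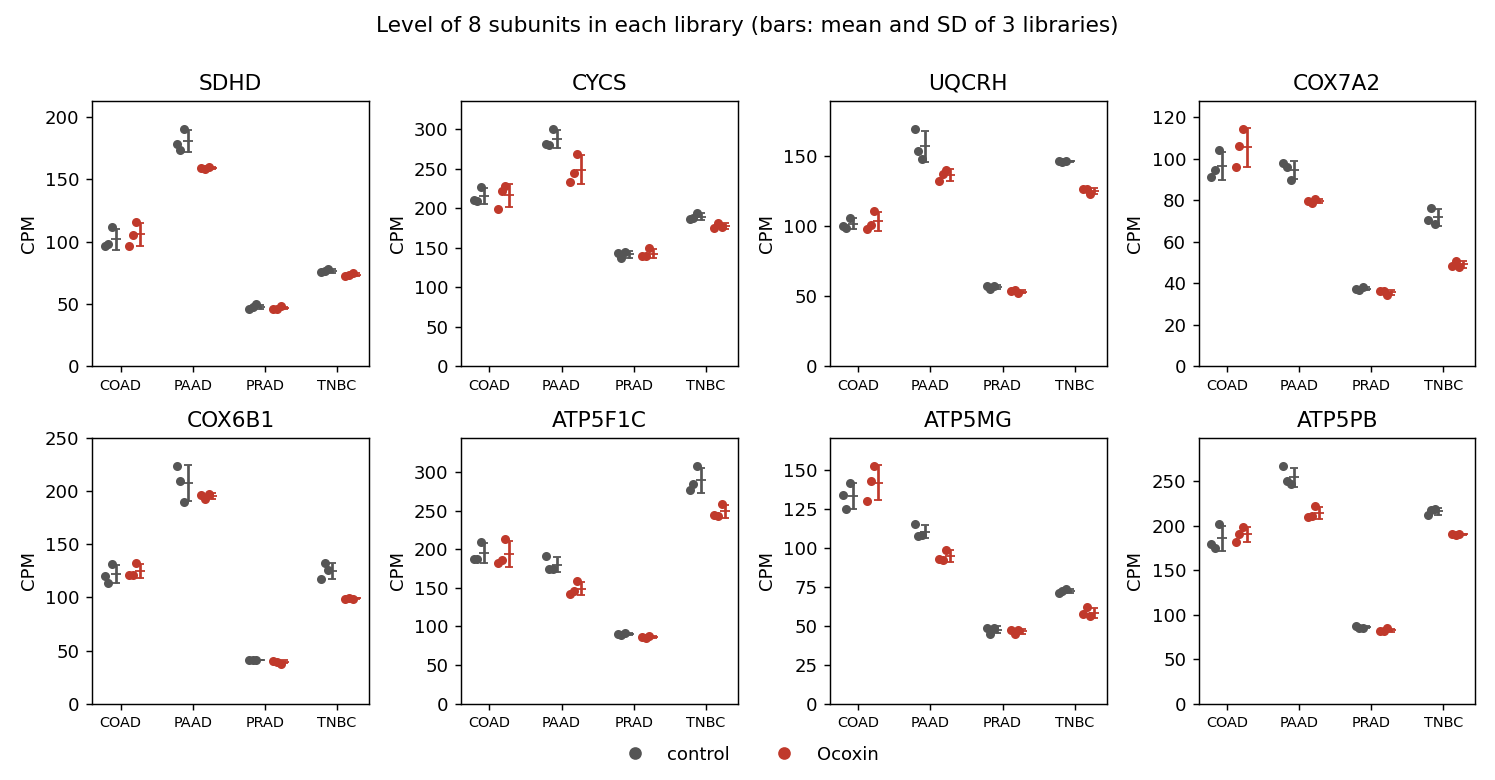
Level (y axis, CPM, TMM-scaled within each line) of 8 genes in every library of the 4 lines (x axis), grey for control and red for Ocoxin, with the mean and SD of 3 libraries. COX7A2 falls from 71.9 to 49.1 CPM in TNBC and from 94.7 to 79.7 in PAAD without overlap between groups, and the groups of COAD overlap in all 8 panels.

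In COAD, 0 of 43 tested genes were called (0 by DESeq2 as well), where 1.47% of the 17659 genes tested were called higher, 1.09% lower and 2.55% in either direction, and at an unadjusted p under 0.05 there were 3 higher and 1 lower. The median log2 fold change was 0.036 against -0.0053 for all genes tested, with 14 of 43 below 0. This median turned with single libraries, from -0.0048 without the third Ocoxin library to 0.077 without the first, and was 0.0036 with the length and GC trend removed (19 of 43 below 0). The Ocoxin libraries lay above all controls for COX5B and below them for SDHA, as they did for 10.2% and 10.4% of all genes tested. The 3 higher ones were COX5B, COX6C and ATP5MK, and the lower one was SDHA. COX6C, a small subunit of complex IV, had the largest change (0.14 ± 0.062, adjusted p = 0.279) with 87.6 ± 4.92 CPM in the controls and 96.5 ± 8.45 with Ocoxin. SDHA was at 366 ± 11.7 CPM in the controls and 341 ± 4.19 with Ocoxin without overlap (-0.10 ± 0.045, adjusted p = 0.26). The largest changes in the other complexes were 0.13 ± 0.077 for UQCR11 and 0.13 ± 0.061 for ATP5MK, a small membrane subunit. SDHB, SDHC, SDHD, CYC1 and CYCS had log2 fold changes between -0.05 and 0.05. COX7A2, the gene that fell most in TNBC, was at 91.2, 94.4 and 104 CPM in the controls and at 95.9, 106 and 114 with Ocoxin, and the groups overlapped (0.13 ± 0.065, adjusted p = 0.358). With the replicate number as a block (edgeR), COX5B, COX6C and COX7A2 were called higher (adjusted p = 0.0373, 0.0264 and 0.0394). That fit called 10.9% of all genes tested in COAD, whose libraries the numbers did not pair.

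In PRAD, 0 of 45 tested genes were called (0 by DESeq2 as well), where 2.4% of the 17070 genes tested were called higher, 0.58% lower and 2.98% in either direction, and at an unadjusted p under 0.05 there were 1 higher and 3 lower. Although 41 of 45 log2 fold changes were below 0, the median was only -0.053, against 0.0088 for all genes tested, and in 20 genes the Ocoxin libraries lay below all controls, as 12.4% of all genes tested did, and in 2 (SDHC and COX7B2) above them, as 15.2% did. The 3 lower ones were SDHA (-0.11 ± 0.035, adjusted p = 0.142), UQCR11 (-0.16 ± 0.057, adjusted p = 0.161) and ATP5MJ (-0.12 ± 0.048, adjusted p = 0.201). The largest change in ATP synthase was that of ATP5MC1, at -0.13 ± 0.058, which did not pass at an unadjusted p under 0.05 either. The higher one was COX7B2, a testis form of subunit VIIb, at 4.36, 3.72 and 3.93 CPM in the controls and 5.24, 6.44 and 7.19 with Ocoxin. Its groups did not overlap, and its log2 fold change of 0.65 ± 0.17 did not pass (adjusted p = 0.0845). SDHC had a positive value that did not pass (0.08 ± 0.040, adjusted p = 0.328), and SDHB, SDHD, CYC1 and CYCS lay between -0.08 and 0.01.

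These counts in PRAD changed with the processing. After the trend of each library with length and GC content was removed, which called 14.4% of all genes tested in PRAD in either direction, 7 genes were called lower (SDHA, UQCRB, UQCRC1, ATP5F1A, ATP5F1B, ATP5MC1 and ATP5MJ) and COX7B2 higher, while the median of all genes tested moved to -0.061 and that of the members to -0.13. PRAD counts per exonic base reached 0.995 for any gene and 0.772 for ATP5F1B, against up to 18.03 for members in the other lines, and how far this ceiling narrows differences of abundant genes was not tested apart from the correction that follows. With a correction for reads of the same start 0 genes were called and the median was -0.074.

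The responses of the 4 lines were compared directly in a fit of all 24 libraries, in which 47 of the genes were tested (edgeR). The log2 fold changes of 12 differed among the lines (adjusted p under 0.05), where 10.9% of 24631 genes did, and these were 5 of complex IV (COX7A2, COX7C, COX6B1, COX8A and COX5B), 5 of ATP synthase (ATP5MG, ATP5F1E, ATP5MC3, ATP5PB and ATP5MK) and 2 of complex III (UQCR11 and UQCRHL). No member of complex II and not CYCS differed among the lines at this threshold. COX7A2 had the strongest evidence (adjusted p = 1.22e-05), with -0.55 in TNBC, -0.25 in PAAD, -0.07 in PRAD and 0.13 in COAD. COX7C followed (adjusted p = 0.00207) with -0.29, -0.18, -0.01 and 0.08 in the same order. The count was 28 with the replicate number of each line as a block, and 7 without the first or the second control, or without the second or the third Ocoxin library, of COAD. The share of all genes that differed in these refits was not counted, so their counts cannot be set against it.

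TNBC and COAD received Ocoxin at the same dilution, so these are the lines whose responses can be set side by side at a matched dilution. TNBC minus COAD was below 0 with an adjusted p under 0.05 for 18 of the 47 genes and above 0 for 0 (edgeR), where 4.1% of 24631 genes were below 0 and 6.78% differed in either direction. By complex these were 7 of complex IV, 6 of ATP synthase, 5 of complex III and 0 of complex II, with median differences of -0.26, -0.22, -0.22 and -0.11. The difference of the log2 fold changes was -0.69 ± 0.086 for COX7A2 (adjusted p = 2.83e-06), -0.39 ± 0.072 for COX7C, -0.41 ± 0.083 for ATP5MG, -0.33 ± 0.069 for ATP5F1E, -0.38 ± 0.081 for COX6B1 and -0.33 ± 0.075 for ATP5MC3. Without the second control or the third Ocoxin library of COAD the count was 9, without the first control of COAD, the second control of TNBC or the first or second Ocoxin library of TNBC it was 10, and without the third control of COAD it was 24. For these refits, too, the share of all genes was not counted.

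**Figure D3:**
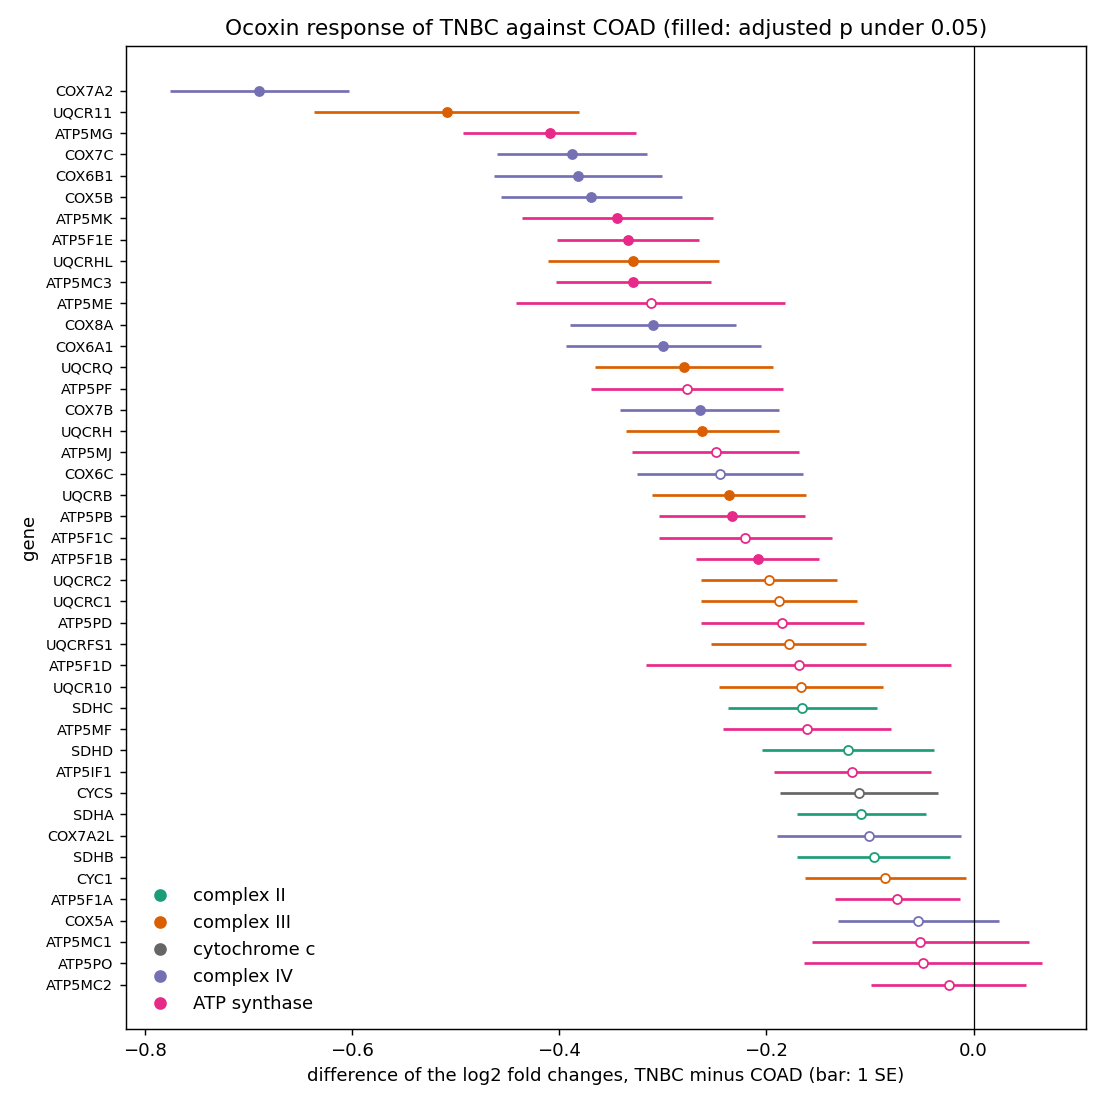
Difference of the log2 fold changes, TNBC minus COAD (x axis, bars of 1 SE), for the 43 genes tested in both lines (y axis), coloured by complex, with filled points for an adjusted p under 0.05. All 43 points lie below 0, from -0.69 for COX7A2 to -0.02 for ATP5MC2.

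The summed level of each complex adds the CPM of its genes without a correction for gene length, so abundant and long genes weigh most in it. All 50 genes together made up 5280 ± 82.8 CPM (SD, n = 3) in the TNBC controls and 4696 ± 21.6 with Ocoxin, a change of -11.1%, and in PAAD 6917 ± 263 and 6368 ± 112 CPM, a change of -7.94%. In PRAD the sums were 3019 ± 34.6 and 2923 ± 22.8 CPM and in COAD 6651 ± 296 and 6758 ± 338 CPM. The control and Ocoxin libraries did not overlap in TNBC, PAAD and PRAD and overlapped in COAD. With 3 libraries against 3 the smallest p of an exact two-sided permutation test is 0.1, so these sums were not tested.

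By complex, the sums in TNBC changed by -10.6% for complex II, -11.2% for complex III, -6.31% for CYCS, -13.4% for complex IV and -10.7% for ATP synthase, all without overlap between groups. Complex IV was at 815, 869 and 854 CPM in the TNBC controls and at 722, 728 and 749 with Ocoxin. In PAAD the changes were -5.44%, -6.59%, -13.3%, -6.64% and -9.12% in the same order. Without the first control of PAAD, the log2 ratio of the sums went from -0.098 to -0.061 for complex III and from -0.099 to -0.058 for complex IV. In PRAD they lay between -4.92% and 0.62% and in COAD between -3.41% and 5.02%. Complex III of PRAD was at 720, 724 and 738 CPM in the controls and at 691, 694 and 690 with Ocoxin.

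**Figure D4:**
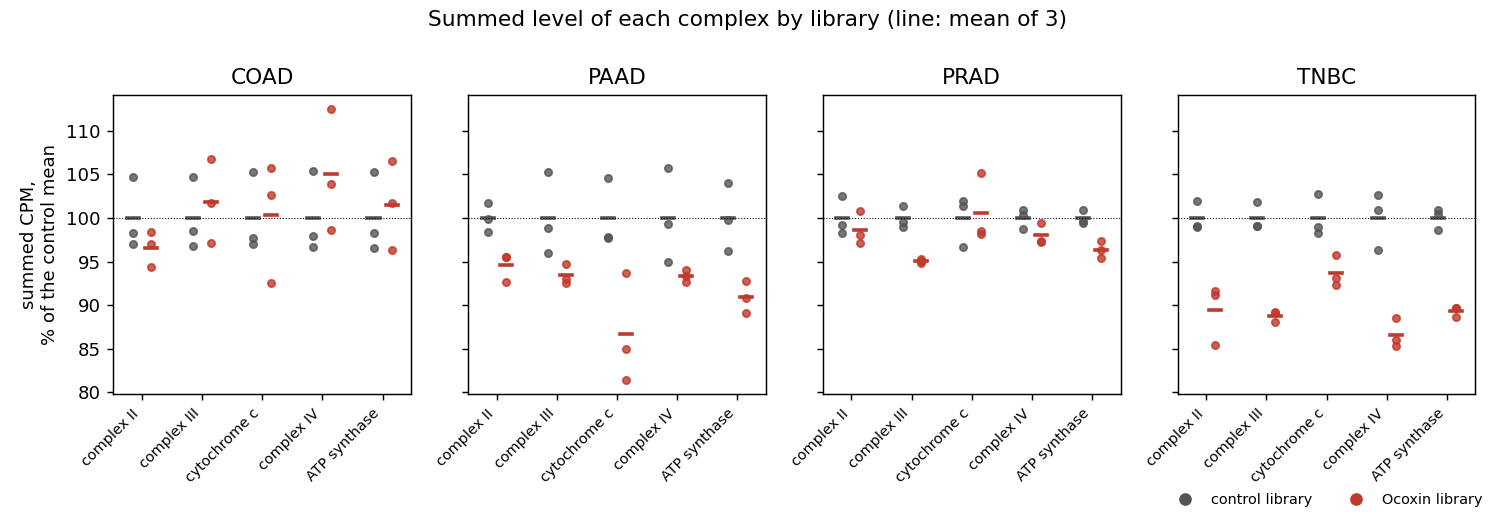
Summed CPM of the genes of each complex (x axis) in every library, as a percent of the mean of the controls of that line (y axis, not starting at 0), with the mean of 3 libraries as a line. The Ocoxin libraries of TNBC and PAAD lie below the controls for each complex. Those of COAD overlap the controls for each complex.

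Genes that build or regulate the chain were counted from lists of their own. Complex I, the entry point for NADH, had 14 of 35 tested nuclear subunits lower and 0 higher in TNBC, where 11.3% of all genes tested were called lower. The median log2 fold change was -0.10, and the calls were led by NDUFA1 (-0.36, adjusted p = 0.000272) and NDUFS6 (-0.29, adjusted p = 0.000523). In PAAD 1 of 36 was lower (NDUFS4, -0.24, adjusted p = 0.0394), a share near the 3.62% of all genes tested that were called lower there. In COAD and PRAD 0 of 37 were called (1 higher and 1 lower, and 0 higher and 2 lower, at an unadjusted p under 0.05).

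Of the 43 factors that assemble the complexes, 8 were called in TNBC, 3 higher and 5 lower, a share near the 21% of all genes tested that were called there. For complex III, LYRM7 (0.37, adjusted p = 0.00548) and BCS1L (0.22, adjusted p = 0.0159), both needed to insert the Rieske protein, rose and UQCC3 fell (-0.32, adjusted p = 0.0298) among 9 tested. For complex IV, COX17, a copper chaperone (-0.29, adjusted p = 0.00557), COA3 and COA4 fell and COA7 rose (0.25, adjusted p = 0.00385) among 24 tested. SDHAF1, which helps to insert the iron-sulfur clusters of SDHB, fell (-0.31, adjusted p = 0.0207) among 4 factors of complex II, and 0 of 6 factors of ATP synthase were called (1 lower at an unadjusted p under 0.05).

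In the other lines 1 assembly factor each was called in PAAD (SDHAF4, -0.49, adjusted p = 0.0421) and COAD (COX15, which makes haem A, -0.21, adjusted p = 0.0287), both lower, and 0 in PRAD (0 higher and 3 lower at an unadjusted p under 0.05). Of 13 regulators of mitochondrial biogenesis, PPARGC1A (0.55, adjusted p = 0.00236) and PPRC1 (0.24, adjusted p = 0.00592), coactivators of respiratory genes, rose in TNBC and PPARGC1B (0.27, adjusted p = 0.0369) rose in PAAD. Of 13 citric acid cycle genes, OGDH, the entry subunit of the oxoglutarate dehydrogenase complex, rose in TNBC (0.46, adjusted p = 1.51e-05) and COAD (0.24, adjusted p = 0.0116), and MDH2 fell in TNBC (-0.14, adjusted p = 0.0113). In PAAD, SUCLG2 (-0.31, adjusted p = 0.00997) and SUCLG1 (-0.22, adjusted p = 0.0413), subunits of the enzyme that supplies succinate, fell. The TNBC calls, 2 regulators higher and 1 cycle gene in each direction, did not exceed the 21% of all genes tested that were called there. For all genes tested in PAAD and COAD that share was 8.33% and 2.55%.

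Overlapping annotation limits some single values. Reads were counted without regard to strand, and 23 of the 50 genes overlap another gene, among them ATP5PF with JAM2 and GABPA, SDHD with TIMM8B and ATP5PB with WDR77, so reads of such neighbours cannot be told apart. Pseudogenes named after a member took over 10% of the joint reads for 4 members in the controls of some line. These were COX6A1 in every line (35.0% in PRAD to 55.3% in TNBC) and, in PRAD only, ATP5F1E (13.2%), ATP5MF (12.9%) and COX7A2 (10.2%). In TNBC the share was 9.73% for ATP5MF, 1.03% for ATP5F1E and 0.304% for COX7A2.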

How the data were processed

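RNA-seq of 24 libraries was analysed, and the C or O in each title decided between control and Ocoxin, since the labels give a dilution for controls too. The authors used fastp for trimming, STAR and hg38 for alignment, picard for duplicate removal and featureCounts 2.0.3 for counting. The deposited values are raw counts per gene, of primary alignments on exons and without strand, in a PRAD table made without the paired-end option and a table of the other lines made with it.

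From these counts, edgeR 4.0.16 (R 4.3.3, limma 3.58.1) was run within each line with its filter on low counts, TMM scaling and the robust quasi-likelihood test, two-sided, and p-values were adjusted by Benjamini-Hochberg over every gene tested, with a threshold of 0.05. Standard errors are the absolute log2 fold change divided by the square root of F. Differences between lines were tested as interactions in 1 fit of all libraries. CPM are TMM-scaled. The steps were tested on simulated data.

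Alternatives were DESeq2 1.42.0, its size factors, no filter, the replicate number as a block, 1 fit of all libraries, removal of a spline trend with length and GC content, halved counts and each library left out, and a same-start correction for PRAD, which was chosen after seeing the data. The numbers were taken to pair a line where the deviations of every same-numbered pair correlated at over 0.1. This held in PAAD, PRAD and TNBC (lowest correlation 0.107, 0.11 and 0.156) and not in COAD (0.0225). In TNBC only the third pair stood out (0.424). The first TNBC control correlated with the second Ocoxin library (0.163) as much as with the first (0.156). The numbers thus do not tell the pairs of replicates 1 and 2 of TNBC apart, which limits its calls with the block. In PAAD and PRAD the second Ocoxin library correlated with the first control (0.090 and 0.099) nearly as much as with the second (0.107 and 0.11). The calls with the block in these 2 lines are limited as well.

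The genes and lists were chosen with earlier results of these data known. Named are SDHA to SDHD, CYC1 and CYCS, up to 4 called genes per line and direction with the smallest p, the gene with the largest change per complex and line, up to 6 genes with the smallest p between lines, and up to 2 per other list. Further genes were named after their values were seen, to complete each complex.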

Additional observations from a re-analysis of the deposited data

Results flagged for a closer look

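Responses to Ocoxin that differed between cell lines by a test of the difference itself stood out for 6 genes. Among the 4 lines (edgeR interaction test, 3 libraries per group) the adjusted p was 1.22e-05 for COX7A2, 0.00207 for COX7C, 0.00403 for ATP5MG, 0.00426 for ATP5F1E, 0.00734 for ATP5MC3 and 0.0095 for COX6B1. TNBC minus COAD, the pair with the same dilution, differed on the log2 scale by -0.69 for COX7A2, -0.39 for COX7C, -0.41 for ATP5MG, -0.33 for ATP5F1E, -0.38 for COX6B1 and -0.33 for ATP5MC3. In all 6, every Ocoxin library of TNBC lay below every control, as 19.8% of all genes tested did, whereas the groups of COAD overlapped. The 6 were picked for the smallest p of the difference in these same data, so this pattern is no separate support. Groups of 3 libraries are too small to look for single outlying libraries.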

How the results depend on the processing

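No called direction reversed. With the replicate block the counts of genes called were 3 in COAD (all higher), 23 in PAAD (all lower), 35 in TNBC, 0 in PRAD and 28 among the 4 lines, and together with removal of the length and GC trend they were 4 in COAD (all higher), 17 in PAAD (all lower) and 17 in PRAD (1 higher and 16 lower). Those fits with block and trend called 13.6%, 20.2% and 31.8% of all genes tested in COAD, PAAD and PRAD, and the block alone 10.9%, 23.1% and 33.9% in COAD, PAAD and TNBC. The numbers did not pair the COAD libraries. The fit of all 24 libraries gave 14 in PAAD, and removal of the trend alone 8 in PRAD. The median log2 fold change in PRAD was -0.069 with DESeq2, -0.076 without the filter, -0.083 in the fit of all 24 libraries, -0.13 with the trend removed, -0.13 with block and trend, and -0.074 after the correction for same-start reads. In TNBC it was -0.16 with the trend removed, with or without the block. The causes were not tested.

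With single libraries left out, counts ran from 19 to 25 in TNBC, from 0 to 13 in PAAD, from 7 to 18 among the lines and from 9 to 24 for TNBC minus COAD, and stayed at 0 in COAD and PRAD. The fits within a line called 12.9% to 21.8% of all genes tested in TNBC and 3.64% to 9.77% in PAAD. In COAD they called 0.669% to 4.33% and in PRAD 0.0173% to 2.28%. Where so few genes passed, 0 calls among the members cannot show an absence of response. Medians ran from -0.20 to -0.18 in TNBC, from -0.15 to -0.085 in PAAD, from -0.073 to -0.043 in PRAD and from -0.0048 to 0.077 in COAD, where the sum of all genes ran from -0.0037 to 0.067 and that of complex IV from 0.028 to 0.12 on the log2 scale, and PRAD sums on the log2 scale from -0.090 to -0.073 for complex III, -0.072 to -0.046 for ATP synthase and -0.066 to -0.042 for all genes. Of the 30 calls in TNBC, 19 were kept in every alternative and leave-out, and of the 9 in PAAD, 0. PRAD had the lowest depth, with a biological coefficient of variation of 6.48% against 6.28% to 6.84% in the other lines. Halving the counts of the other lines left 0 calls in COAD, 10 in PAAD and 30 in TNBC. Halving only scaled the counts and drew no reads anew, so it cannot show what a lower depth does to the calls.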
